A study of Homo sapiens with 15 samples.

Results

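The comparison described here set 4 libraries of cells from metachronous brain metastases (M-BM) against 4 libraries of latent or residual brain cells (Lat), all derived from HCC1954, a human breast cancer line in which the receptor gene ERBB2 (HER2) is amplified. Genes entered with a deposited value of 10 or more in 4 or more of these 8 libraries, which held for 9230 of the 19845 names in the table. The study holds 15 libraries in all, of which the 4 from synchronous brain metastases (S-BM) lie in the same table and are given beside the others as levels. The parental libraries lie in a separately normalized table and were not used here. Per the labels, cells of every group were kept overnight in a medium named R3F before RNA was taken, and no drug or genetic change is named for any group. The labels name neither the host animal nor the number of animals or clones behind a group, nor is it stated that replicate libraries came from separate cultures. The p-values therefore reflect how much these libraries differ among themselves, and that spread may be technical.

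Metachronous metastases appear some time after a primary tumour has been treated or removed, whereas latent cells are those that persist in an organ without growing out. HER2-positive breast cancer is known for relapse in the brain. The contrast asks what distinguishes cells that had grown out in brain from cells that had stayed behind there, as both looked after return to culture.

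The 8 libraries held 14.15 to 21.84 M reads assigned to genes, and 3 reads correspond to a value of 0.136 to 0.209, a limit that covers counting error only. The label was checked against marker genes: 10 of 10 breast epithelial markers were tested, and their values summed to 7004 to 8286 in Lat and 7122 to 9012 in M-BM. No astrocyte, neuron, endothelial or fibroblast marker was tested, and the summed values lay between 0.997 and 2.38 for astrocytes, 2.10 and 5.69 for neurons, 4.77 and 11.9 for endothelium and 5.85 and 21.4 for fibroblasts over the 8 libraries. No listed marker was at 0 in all 8 libraries, but 3 of 4 astrocyte, 2 of 4 neuron, 3 of 5 endothelial and 3 of 4 fibroblast markers stayed under 1 in all 8. Values of oligodendrocyte markers summed to 101.5 to 130.6 in Lat and 105 to 160.3 in M-BM, with 1 tested gene, and those of microglia and leukocytes to 21.6 to 39.2 and 16.7 to 21.98, with 2. Most of the oligodendrocyte sum was MBP (92.5 to 150.5 over the 8 libraries). MAG was 2.19 to 6.78, OLIG2 2.66 to 5.16 and MOG at most 0.103. The microglia and leukocyte sum was mostly CSF1R (5.85 to 14.85) and CD68 (8.64 to 30.85), while PTPRC, AIF1 and CX3CR1 were at most 0.362.

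Several libraries stood apart. Pearson correlations of log2(value + 1) across genes, which are not independent replicates, had a median of 0.981 between Lat libraries, 0.974 between M-BM libraries and 0.977 between the groups. The first principal component held 33.1% of the variance and set Lat 3 (-28.7) apart from the 7 others (-1.91 to 16.9), and the second, with 25%, set M-BM 3 (-14.4) and M-BM 4 (-19.5) apart from Lat 1, 2 and 4 (8.99 to 10.4). TXNIP, an inhibitor of thioredoxin that responds to glucose, was 1481 in Lat 3 and 27.9 to 155 in the other 7 libraries. The imprinted RNA H19 was 127.5 in M-BM 1 and 3.73 to 13.5 elsewhere, and the glycosyltransferase gene GCNT1 was 3.46 in M-BM 3 and 24.9 to 90.7 elsewhere. Lat 1 and Lat 2 were the closest pair of libraries, yet the squared difference of their counts averaged 4.999 times the sampling variance per gene.

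M-BM 4 carried RNA of genes that were high in S-BM and far lower in Lat. A rule that used no M-BM value, and was set after the values had been seen, took the 6 genes with a value of at least 50 in every S-BM library and at least 8 times higher there than in any Lat library. In M-BM 4 all 6 reached at least 10% of their S-BM mean, with a median of 19.2%, against medians of 4.80%, 3.05% and 1.77% in M-BM 1, 2 and 3 and 1.03% to 2.74% in Lat. In M-BM 1, 1 of the 6 reached 10%, and in M-BM 2, M-BM 3 and Lat none did. The clearest was LMAN1, whose product carries cargo proteins out of the endoplasmic reticulum. It was listed at 0 in Lat 1 to 4 and in M-BM 1 to 3, at 26.8 in M-BM 4 and at 89.6 to 118 in S-BM. RARRES1, a retinoic acid response gene, was 116 in M-BM 4, 1.86 to 17.8 in the 7 other libraries and 379 to 495 in S-BM. TNFSF10, which encodes the death ligand TRAIL, was 17.8 in M-BM 4, 0.697 to 5.33 in the 7 others and 54.1 to 143 in S-BM. Whether the presence of these transcripts bears on the results below was not tested. Calls lost without M-BM 4 are named, and some list and chromosome medians are given without it. Other values, those of single genes and of runs among them, include M-BM 4 and may change without it.

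The number of genes that distinguished M-BM from Lat was small with limma and edgeR and larger with DESeq2. Of 9230 tested genes, 5 passed an adjusted p of 0.05 with limma (0.0542%), 4 of them higher in M-BM (0.0433%) and 1 lower (0.0108%). On recovered reads edgeR called the same 5 genes and DESeq2 called 161, 96 higher and 65 lower, and leaving out each library in turn gave limma 3 to 27 calls, with 27 without M-BM 1 (11 higher, 16 lower). At an unadjusted p under 0.05 limma had 1050 (11.4%), 545 higher (5.9%) and 505 lower (5.47%), and 659 genes (7.14%) had groups that did not overlap, 326 higher (3.53%) and 333 lower (3.61%). The median difference over all tested genes was 0.01 on the log2 scale and the median absolute difference 0.11. In 98.3% of genes the difference was under 1.5-fold, and 51.8% of genes were above 0. A difference of 2-fold or more was seen in 32 genes, 22 higher and 10 lower in M-BM, and the groups overlapped in 16 of these. Folds and log2 differences are those of value + 1, which understates the change of low genes.

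**Figure D1:**
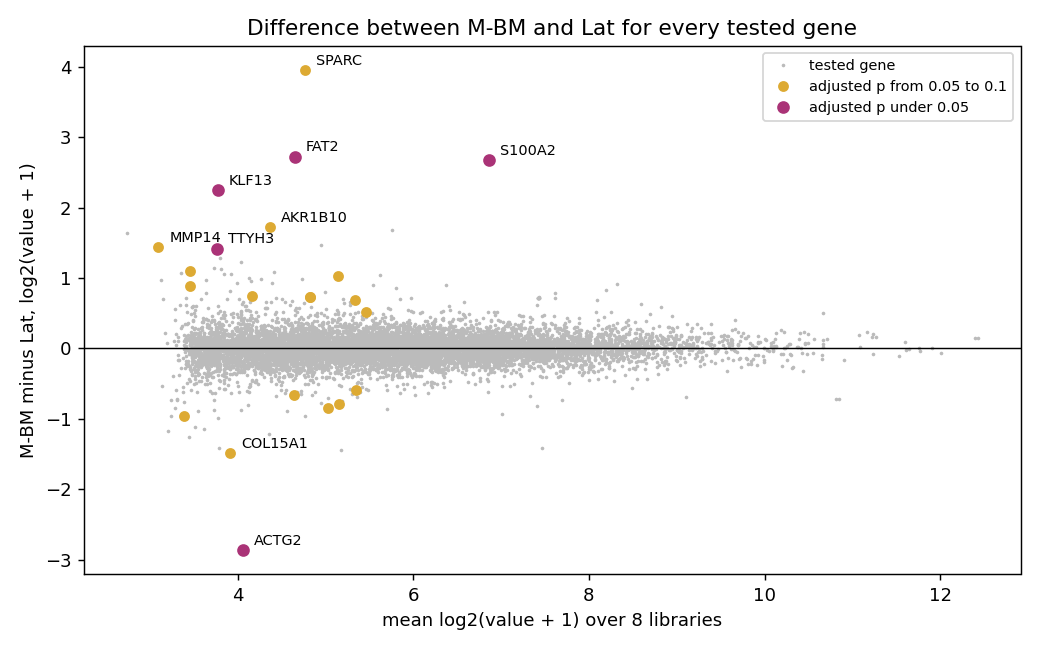
Difference between M-BM and Lat (vertical axis, log2 of value + 1) against the mean level over the 8 libraries (horizontal axis, log2 of value + 1) for each of the 9230 tested genes. Most points lie within 0.5 of 0, while the 5 genes past an adjusted p of 0.05 differ by 1.41 or more in either direction.

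S100A2, a calcium-binding protein made by basal epithelial cells, had the smallest p. Its values were 42.8, 36.4, 65.6 and 39.9 in Lat 1 to 4 and 293, 195, 394 and 323 in M-BM 1 to 4. The lowest M-BM library stood well above the highest Lat library. The gene rose by 2.67 on the log2 scale (SE 0.22, 6.38-fold; limma adjusted p = 0.000932). S-BM split into a low pair at 166 and 63.6 and a high pair at 816 and 806, and with S-BM included in the fit, so that its spread counted, the adjusted p became 0.145 with the same difference. The gene lies on the minus strand of chromosome 1 (GRCh38.p14, chr1:153561108-153565844). The 250 bases before its start (RefSeq, GRCh38.p14, chr1:153565845-153566094) are shown because they hold, in capitals, the letters TGACTCA, the motif of AP-1, the dimer of FOS and JUN proteins, beginning 52 bases before the start. The same motif was in 3.203% of the promoters of tested genes and 4.949% of all promoters, searched on both strands from 250 bases before to 50 bases after the start.
S100A2: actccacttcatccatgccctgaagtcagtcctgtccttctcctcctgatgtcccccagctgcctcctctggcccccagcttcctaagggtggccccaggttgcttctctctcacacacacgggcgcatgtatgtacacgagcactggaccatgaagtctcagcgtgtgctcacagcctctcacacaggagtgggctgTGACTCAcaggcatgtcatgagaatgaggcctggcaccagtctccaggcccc

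In FAT2, an atypical cadherin of epithelial cells, the Lat libraries read 7.40, 5.87, 13.7 and 9.90 and the M-BM libraries 62.1, 99.8, 57.2 and 46.3. Every M-BM library exceeded every Lat library by over 3-fold. The rise was 2.72 on the log2 scale (SE 0.26, 6.60-fold; limma adjusted p = 0.00138), and S-BM stood between the groups at 15.4 to 26.1. FAT2 lies at chr5:151504092-151594819.

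The gene next to FAT2 in this table is SPARC, 66.3 kilobases away at chr5:151661096-151686915, which encodes a secreted glycoprotein that binds collagen. It had the widest difference of all tested genes. SPARC was 3.03, 2.22, 41.9 and 3.07 in Lat 1 to 4 and 113, 186, 89.0 and 67.2 in M-BM 1 to 4. All Lat libraries lay below all M-BM libraries, but Lat 3 was far above the 3 other Lat libraries. The log2 difference of 3.96 (SE 0.70) did not pass the threshold (limma adjusted p = 0.0785). Without Lat 3 it was 4.84 with an adjusted p of 4.05e-05. In S-BM the gene was nearly silent, at 0.285 to 1.06. The tested genes on either side did not share the difference: SLC36A1 was 19.3 to 24.7 in Lat and 19.97 to 21.5 in M-BM (log2 difference -0.03), GM2A differed by 0.06, ATOX1 by -0.12 and G3BP1 by 0.00. SLC36A1 and FAT2 overlap in the annotation and the libraries do not mark the strand, so reads from the overlap cannot be told apart.

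KLF13, a transcription factor of the Krüppel-like family, was 4.62, 4.15, 10.9 and 3.49 in Lat and 29.9, 26.6, 26.9 and 31.8 in M-BM. The 4 M-BM libraries lay close together and well above Lat. It rose by 2.25 on the log2 scale (SE 0.26, 4.74-fold; limma adjusted p = 0.0066), and S-BM was higher still at 49.8 to 71.8. Without M-BM 4 the difference was 2.20 with an adjusted p of 0.0515. The 13 other tested KLF and SP factors ranged from -0.64 (KLF12) to 0.06 (SP1). KLF13 lies at chr15:31326835-31435665.

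TTYH3, a member of the tweety family of chloride channels, was 6.42, 6.70, 9.37 and 7.04 in Lat and 30.8, 16.3, 19.7 and 20.2 in M-BM. The groups did not overlap, with M-BM 1 the highest. It rose by 1.41 on the log2 scale (SE 0.19, 2.67-fold; limma adjusted p = 0.0228). This was the least stable call of the 5: adjusted p was 0.0647 to 0.149 without Lat 1, Lat 2, Lat 4, M-BM 3 or M-BM 4, each in turn. S-BM stood at 50.02 to 96.9. TTYH3 lies at chr7:2631986-2664802.

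ACTG2, the gamma actin of smooth muscle, was the gene that fell. It stood at 44.9, 41.6, 37.5 and 53.5 in Lat 1 to 4 and at 6.70, 8.49, 2.63 and 4.47 in M-BM 1 to 4. All M-BM libraries were at least 4 times lower than any Lat library. ACTG2 fell by 2.87 on the log2 scale (SE 0.26, 7.30-fold; limma adjusted p = 0.0011), and S-BM was as low as M-BM, at 2.55 to 9.17. In bulk libraries, fewer cells that express a gene and less of its RNA per cell cannot be told apart. Actin genes are near identical in their coding parts, so how reads were divided between ACTG2 and its relatives is uncertain. ACTA2, the alpha actin of smooth muscle, was 17.1, 17.6, 2.95 and 26.2 in Lat and 5.22, 13.5, 3.36 and 2.62 in M-BM. Lat 3 was as low as M-BM there, and the difference of -1.17 did not pass the test. ACTG2 lies on the plus strand at chr2:73893008-73919865. The 250 bases before its start (RefSeq, GRCh38.p14, chr2:73892758-73893007) are shown because they hold a pair of CArG boxes, the site bound by serum response factor, which begin 110 and 73 bases before the start and are in capitals. Such a box was in 1.155% of the promoters of tested genes and 1.293% of all promoters. This motif was added to the search after the values had been seen. The promoters of FAT2, KLF13 and TTYH3 held none of the motifs searched, which also included those of ATF4 with CEBP (TGATGCAA), SREBP (TCACNCCAC) and E2F (TTTGGCGC or TTTCGCGC).
ACTG2: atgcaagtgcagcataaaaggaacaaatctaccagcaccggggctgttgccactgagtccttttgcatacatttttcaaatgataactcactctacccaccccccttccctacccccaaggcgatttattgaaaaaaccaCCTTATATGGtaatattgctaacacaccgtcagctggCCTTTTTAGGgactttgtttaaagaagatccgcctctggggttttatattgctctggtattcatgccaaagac

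Lat 3 was the Lat library nearest to M-BM in each of the 5 genes, the highest of the 4 for S100A2, FAT2, KLF13 and TTYH3 and the lowest for ACTG2. ACTG2 and FAT2 were called in all 21 alternative analyses, S100A2 and KLF13 in 20 and TTYH3 in 14.

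**Figure D2:**
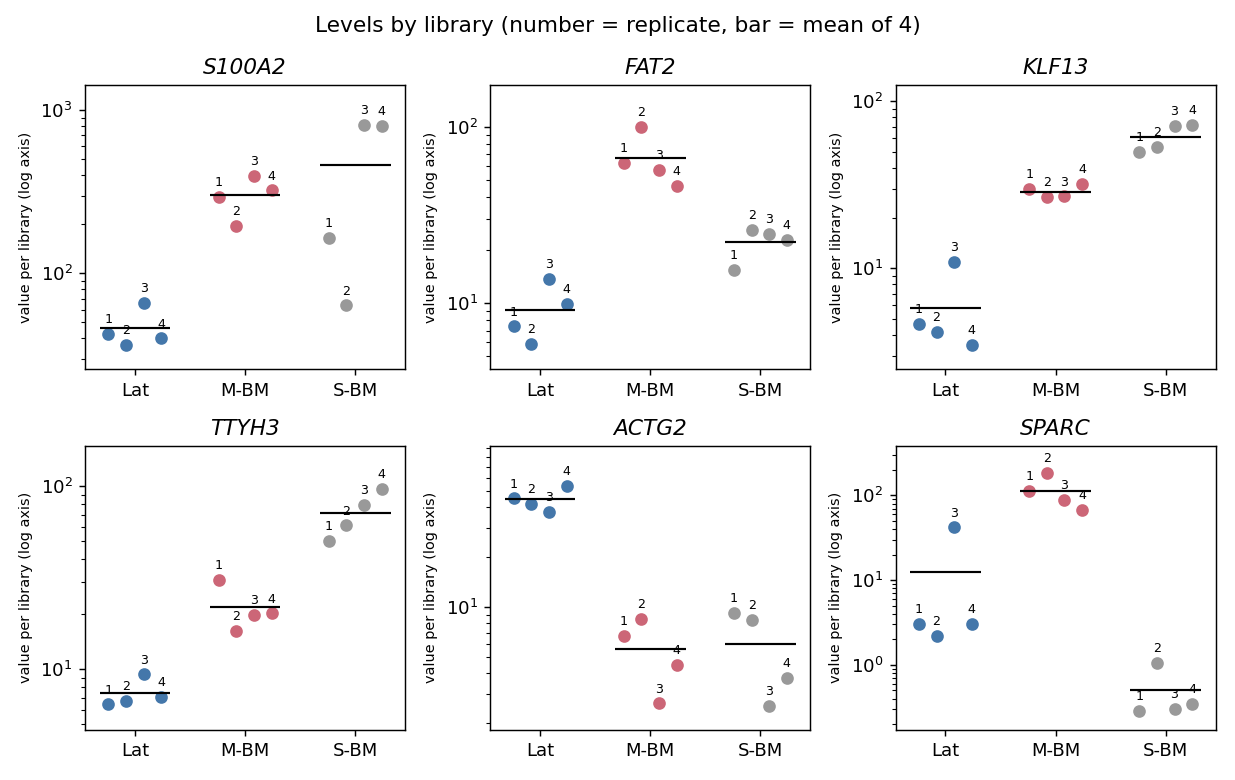
Value per library on a log axis for the 5 called genes and SPARC in Lat, M-BM and S-BM (numbers are replicates, bars are means of 4). M-BM lies above Lat in S100A2, FAT2, KLF13, TTYH3 and SPARC and below it in ACTG2, and Lat 3, at 41.9, is the library that widens the Lat spread of SPARC.

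A further 17 genes had an adjusted p between 0.05 and 0.1, so that 22 genes in all stood under 0.1, 15 higher and 7 lower in M-BM. None of the 17 was called by limma or by edgeR, while DESeq2 on recovered reads called 16 of them. Among those with higher values in M-BM, AKR1B10, an aldo-keto reductase that reduces aldehydes and retinal, was 12.4, 12.9, 4.40 and 15.5 in Lat and 43.3, 29.4, 32.7 and 42.8 in M-BM. The groups did not overlap, and Lat 3 was lowest (log2 difference 1.73, limma adjusted p = 0.0785, and 0.00714 without Lat 3). MMP14, a membrane-bound protease of matrix proteins, was 2.77 to 7.39 in Lat and 10.6 to 14.9 in M-BM (log2 difference 1.44). FUCA2, a fucosidase, was 19.3 to 31.7 in Lat and 42.4 to 61.4 in M-BM (1.03). ZSCAN31 (1.10), the guanine exchange factor DOCK6 (0.89), PCDHGC3 (0.75), the heat shock protein HSPA4L (0.74), ARHGAP23 (0.74), the lipoprotein receptor VLDLR (0.69) and the cadherin CELSR2 (0.51) completed that side with SPARC. For these genes too the groups did not overlap.

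Among the genes with lower values in M-BM, COL15A1, a collagen of basement membranes, was 22.2, 21.0, 40.6 and 18.1 in Lat and 7.43, 9.31, 10.02 and 5.85 in M-BM. The groups were well separated (log2 difference -1.49, limma adjusted p = 0.0575), and S-BM was at 0.225 to 0.855. DGAT2, which makes triglyceride, was 11.8 to 19.8 in Lat and 5.52 to 7.68 in M-BM (-0.96). GALNT6, an enzyme that starts O-linked glycans, was 37.1 to 50.1 and 19.4 to 28.0 (-0.85), while in S-BM it was 43.7 to 56.2. DUSP1, a phosphatase that switches off MAP kinases, was 39.2 to 50.2 and 22.02 to 32.4 (-0.79). POLR3F (-0.66) and MGME1 (-0.60), which are neighbours on chromosome 20, come back below.

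A set of genes fixed for known roles in metabolism or brain metastasis, or from earlier results of these data, held no call. SLC7A11, the cystine importer, was 484, 540, 328 and 519 in Lat and 498, 499, 687 and 605 in M-BM, with overlapping groups (log2 difference 0.30, limma adjusted p = 0.513). GCLC and GCLM, the subunits that start glutathione synthesis, differed by 0.25 and 0.27. DNM1L, the fission protein of mitochondria, was 135 to 157 in Lat and 131 to 142 in M-BM, a difference of -0.06 with a 95% interval of -0.24 to 0.11. CPT1A, which admits fatty acids to mitochondria, differed by -0.12 (-0.42 to 0.17), and LDHA, lactate dehydrogenase, by -0.04 (-0.27 to 0.20). SLC2A1, the main glucose transporter, was 90.2 to 122.18 in Lat and 122.96 to 139.8 in M-BM. Its groups did not overlap, by a margin under 1 unit, and its difference of 0.31 was not called (limma adjusted p = 0.297).

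ERBB2 itself was 3346, 2943, 2836 and 3775 in Lat and 2801, 4184, 2989 and 2996 in M-BM, a difference of 0.00 with a 95% interval of -0.32 to 0.31. M-BM 2 stood above the 3 other M-BM libraries. S-BM split again, into 4109 and 4642 against 353 and 367. IL24, a cytokine of the interleukin 10 family, was 268, 264, 489 and 196 in Lat and 101, 51.8, 183 and 136 in M-BM. The groups just failed to overlap, and the difference of -1.42 was not called (limma adjusted p = 0.197). L1CAM, an adhesion molecule that lets tumour cells spread along vessels, was 44.5 to 92.1 in Lat and 34.1, 83.7, 30.5 and 23.1 in M-BM, where M-BM 2 lay within the Lat range (-0.85, limma adjusted p = 0.38). VIM, the mesenchymal filament vimentin, was 6.06, 5.87, 37.0 and 5.65 in Lat and 46.2, 4.79, 31.7 and 25.2 in M-BM, so each group held libraries of both levels. CDH1, the epithelial cadherin, was 348 to 445 and 415 to 608 (0.31). SOX9 (-0.17), DKK1 (-0.16), MYC (-0.11), GRB7 (-0.11), SLC16A3 (0.08), FOSL1 (-0.49) and CD274 (-0.55) had overlapping groups as well. SOX2 and TNFSF10 did not reach the level for testing, nor did LMAN1.

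Coordinated small shifts were looked for in 98 lists of pathways and gene families, of which 94 had at least 5 tested members. None held 3 or more called genes, and 4 held 1 or more. In 75 lists the median difference lay within 0.1 of that of all genes. It lay at least 0.15 away in 10, of which 4 were higher and 6 lower in M-BM. In 7 lists the 4 M-BM medians did not overlap the 4 Lat medians, and in the others they did. The 7 were heat shock, NOTCH, retinoid handling, KLF and SP factors, the chaperonin CCT, Mediator, and mitochondrial fission and fusion. These counts are descriptions with no test, and many lists share members.

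**Figure D3:**
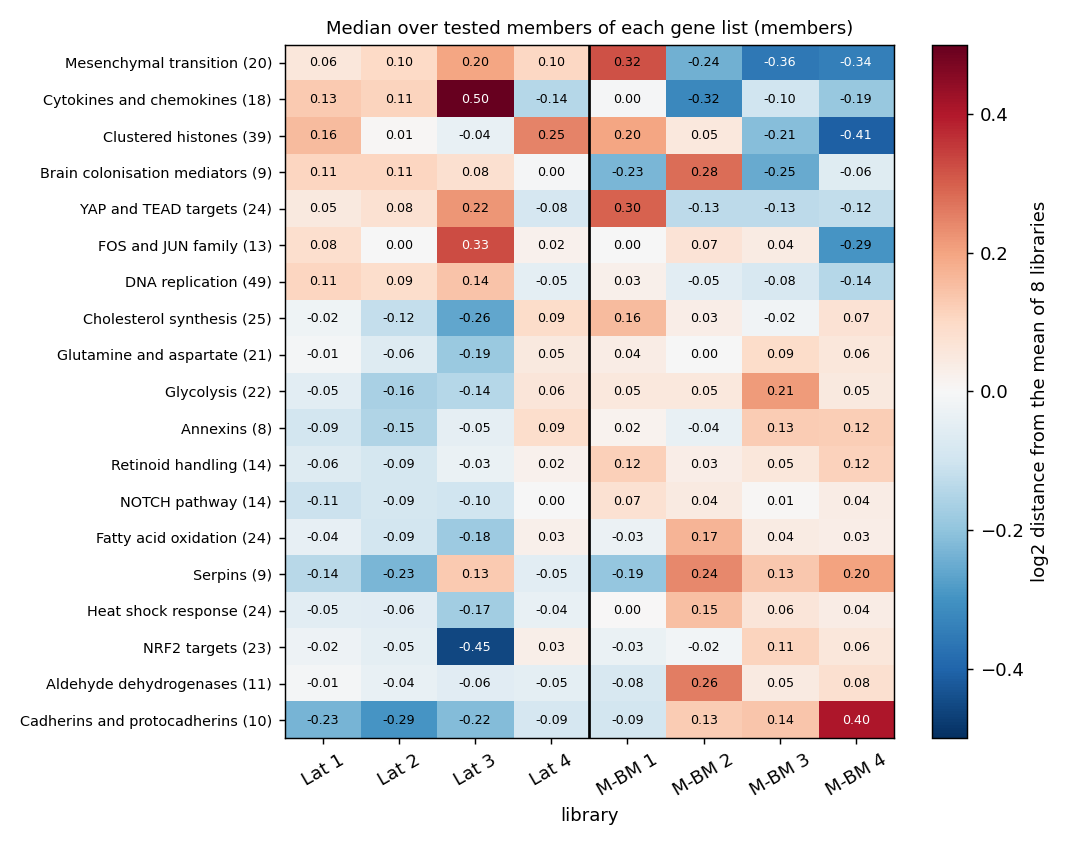
Median over the tested members of each of the 19 lists whose median lay at least 0.1 from that of all genes, per library, as the log2 distance from the mean of the 8 libraries (colour and printed value; red above, blue below). Lat 3 reaches 0.50 for cytokines and -0.45 for NRF2 targets and M-BM 1 reaches 0.32 for mesenchymal genes, so several rows differ within a group as much as between the groups.

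The lowest median, -0.37, was that of mesenchymal transition genes, with 15 of 20 tested members below 0 and 5 above. The groups did not overlap in 2 lower members (ACTG2 and SERPINE2) and 1 higher (SPARC). That is 10% of the list lower and 5% higher, against 3.61% and 3.53% of all tested genes. Of the 20 members only ACTG2 was called. The fibronectin gene FN1 was 1817, 1795, 4951 and 1940 in Lat and 1834, 1546, 1380 and 1112 in M-BM (-0.71, limma adjusted p = 0.396), with Lat 3 far above the rest. THBS1, thrombospondin, differed by -0.72, the actin binders CALD1 and TAGLN by -0.66 and -0.62, and CTGF by -0.59. The members above 0 included VIM (1.06), MMP2 (0.62) and AXL (0.20), so the list did not move as a block. M-BM 1 stood at 0.32, above every Lat library (0.06 to 0.20), while M-BM 2, 3 and 4 were at -0.24, -0.36 and -0.34. Without Lat 3 the list median was -0.27 and without M-BM 1 it was -0.47.

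Cytokine and NF-kappaB genes had a median of -0.28, with 15 of 18 below 0. NFKB2, a subunit of NF-kappaB, was 65.7, 62.7, 86.1 and 56.6 in Lat and 55.3, 41.7, 46.9 and 41.1 in M-BM, without overlap (-0.53). Its targets BIRC3 (-0.67) and TNFAIP3 (-0.58) overlapped, as did LIF (-0.39). Lat 3 held the highest list median by far, 0.50, and Lat 4, at -0.14, lay below M-BM 1 and M-BM 3. Without Lat 3 the list median was -0.18. YAP and TEAD targets had a median of -0.14, with 16 of 24 below 0. M-BM 1 stood at 0.30, above every Lat library (-0.08 to 0.22), while M-BM 2, 3 and 4 were at -0.13, -0.13 and -0.12. NUAK2, a kinase, was 32.9 to 81.4 in Lat and 22.5 to 29.9 in M-BM (-0.74), and LATS2, the kinase that restrains YAP, was 78.0 to 104 and 64.3 to 74.1 (-0.49). Without M-BM 2 the list median was -0.04, and without Lat 3 it was -0.08. The FOS and JUN family, whose motif was found before S100A2, had a median of -0.14, with 11 of 13 members below 0, among them FOSL1 (-0.49), JUND (-0.17), JUN (-0.14) and JUNB (-0.11). M-BM 4 was lowest at -0.29, and without it the list median was -0.08, while without M-BM 2 it was -0.22.

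Genes of DNA replication had a median of -0.13, and 42 of 49 were below 0. The differences were small: FEN1, the flap endonuclease, was 144, 134, 141 and 122.5 in Lat and 120, 106, 110 and 93.8 in M-BM (-0.33, limma adjusted p = 0.248), without overlap. RRM2, the small subunit of ribonucleotide reductase, was 259 to 340 and 224 to 252 (-0.32). GINS2, part of the replicative helicase, was 51.5 to 53.5 and 39.4 to 47.3 (-0.26), and PCNA, the sliding clamp, differed by -0.26. The list median stayed between -0.16 and -0.10 when each library was left out in turn. The library medians overlapped: Lat 4 (-0.05) lay below M-BM 1 (0.03) and level with M-BM 2 (-0.05). Genes of mitosis had a median of 0.00, with 25 of 50 above 0. Clustered histone genes, whose transcripts largely lack the poly(A) tail that the kit selects, had a median of -0.18, with 37 of 39 below 0. HIST2H2AC was 304, 291, 357 and 324 in Lat and 244, 258, 242 and 198 in M-BM (-0.44). Histone levels varied within the groups, from 0.20 in M-BM 1 to -0.41 in M-BM 4, and the median was -0.07 without M-BM 4. Histone genes are near identical, so their single levels are uncertain. The 9 mediators of brain colonisation had a median of -0.16, which lay between -0.11 and 0.02 when each library was left out, the last of these without M-BM 3.

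On the higher side, heat shock genes had a median of 0.17, with 21 of 24 above 0. The library medians ran from -0.17 to -0.04 in Lat and from 0.00 to 0.15 in M-BM and did not overlap. Groups were separate in 5 members and all 5 were higher in M-BM (20.8% of the list, against 3.53% of all tested genes). HSPA4L was 20.3, 23.5, 20.7 and 19.7 in Lat and 29.9, 35.1, 37.7 and 41.0 in M-BM (0.74, limma adjusted p = 0.0575). The inducible chaperone HSPA1A was 74.8 to 90.6 and 102 to 165 (0.49). HSPA1B, its near-identical copy, shares reads with it and is no separate evidence (0.40). DNAJB6, a co-chaperone, was 47.6 to 53.7 and 57.1 to 69.8 (0.30), and HSP90AB1, the constitutive cytosolic HSP90, 1802 to 2340 and 2370 to 2871 (0.23). Only HSPA4L among them had an adjusted p under 0.1. The list median lay between 0.11 and 0.18 when each library was left out.

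Metabolic lists lay slightly above 0. Fatty acid oxidation had a median of 0.15, with 22 of 24 members above 0. HADHA, the large subunit of the trifunctional enzyme, was 132, 132, 130 and 133 in Lat and 149, 143, 182 and 201 in M-BM (0.34, limma adjusted p = 0.296). SLC27A2, a fatty acid transporter that activates very long chains, was 9.63 to 14.1 and 15.6 to 22.5 (0.51). CPT1A and ACSL4 were the members below 0. Without Lat 3 the list median was 0.06. The library medians overlapped, with M-BM 1 (-0.03) below Lat 4 (0.03). Glycolysis had a median of 0.13, with 18 of 22 above 0, and its 5 members with separate groups were all higher in M-BM (22.7% of the list, against 3.53% of all tested genes). PFKM, the muscle isoform of phosphofructokinase, was 44.2, 41.9, 43.9 and 41.4 in Lat and 61.4, 59.9, 61.3 and 52.2 in M-BM (0.44, limma adjusted p = 0.113). GPI, glucose phosphate isomerase, was 146 to 244 and 249 to 304 (0.44), PFKFB4 differed by 0.50 and ALDOA by 0.14. The list median stayed between 0.10 and 0.20 when each library was left out. The library medians overlapped, as Lat 4 (0.060) lay above M-BM 1, 2 and 4 (0.054, 0.053 and 0.048). M-BM 3 was highest at 0.21.

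NRF2 targets had a median of 0.18, with 17 of 23 above 0, of which AKR1B10 had the largest difference. GSR, glutathione reductase, was 146, 142, 98.9 and 146 in Lat and 159, 184, 150 and 156 in M-BM (0.30), and FTL, the ferritin light chain, 314 to 466 and 393 to 819 (0.59). Lat 3 was the low library, at -0.45, and the list median was 0.09 without it. Aldehyde dehydrogenases had a median of 0.19, with 7 of 11 above 0, which was 0.06 without Lat 3. The highest median, 0.45, was that of cadherins and protocadherins, with 9 of 10 above 0. M-BM 4 was highest at 0.40, M-BM 1 (-0.09) was no higher than Lat 4 (-0.09), and the list median was 0.30 without M-BM 4. Separate groups, all higher in M-BM, were found in 4 of them (40% of the list, against 3.53% of all tested genes). PCDHGC3, PCDHGA10, PCDHGA11 and PCDHGB5 were these 4, but these gamma protocadherins share exons, so the same reads may be counted for all 4. Among classical and desmosomal members, CDH1 (0.31) and CDH3 (0.21) overlapped between groups, and DSG2 was high in M-BM 3 and 4 alone.

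Gene order carried a part of the small differences. Positions were found for 9138 tested genes. On chromosome 20, where 270 genes were tested, the median difference was -0.17, and groups were separate in 42 genes, all lower in M-BM. That is 15.6% of its genes against 3.61% of all tested genes, and no gene was separate in the other direction. The chromosome medians were 0.10, 0.07, 0.11 and 0.07 in Lat 1 to 4, -0.12 in M-BM 3 and -0.21 in M-BM 4, but -0.01 in M-BM 1 and 0.03 in M-BM 2. The chromosome 20 median was -0.12 without M-BM 4 and between -0.20 and -0.16 without any other library. Chromosome 9 had a median of -0.10, with 46 of 407 genes separate and lower (11.3%) and 9 separate and higher. Chromosome 3 lay on the other side at 0.08, with 25 genes separate and higher (5.04%, against 3.53% of all tested genes) and 3 lower (0.605%, against 3.61%), and M-BM 1 alone stood out there at 0.20. Shares of separate and higher genes were larger on chromosomes 4 (7.78%), 1 (7.55%) and 22 (6.67%), with medians of 0.05, 0.05 and 0.00. Chromosome 18 had the highest median, 0.12. There M-BM 3 and M-BM 4 stood at 0.15 and 0.16 and the 2 other M-BM libraries at -0.11 and -0.07. Neighbouring genes are not independent, and DNA copy number was not measured here.

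**Figure D4:**
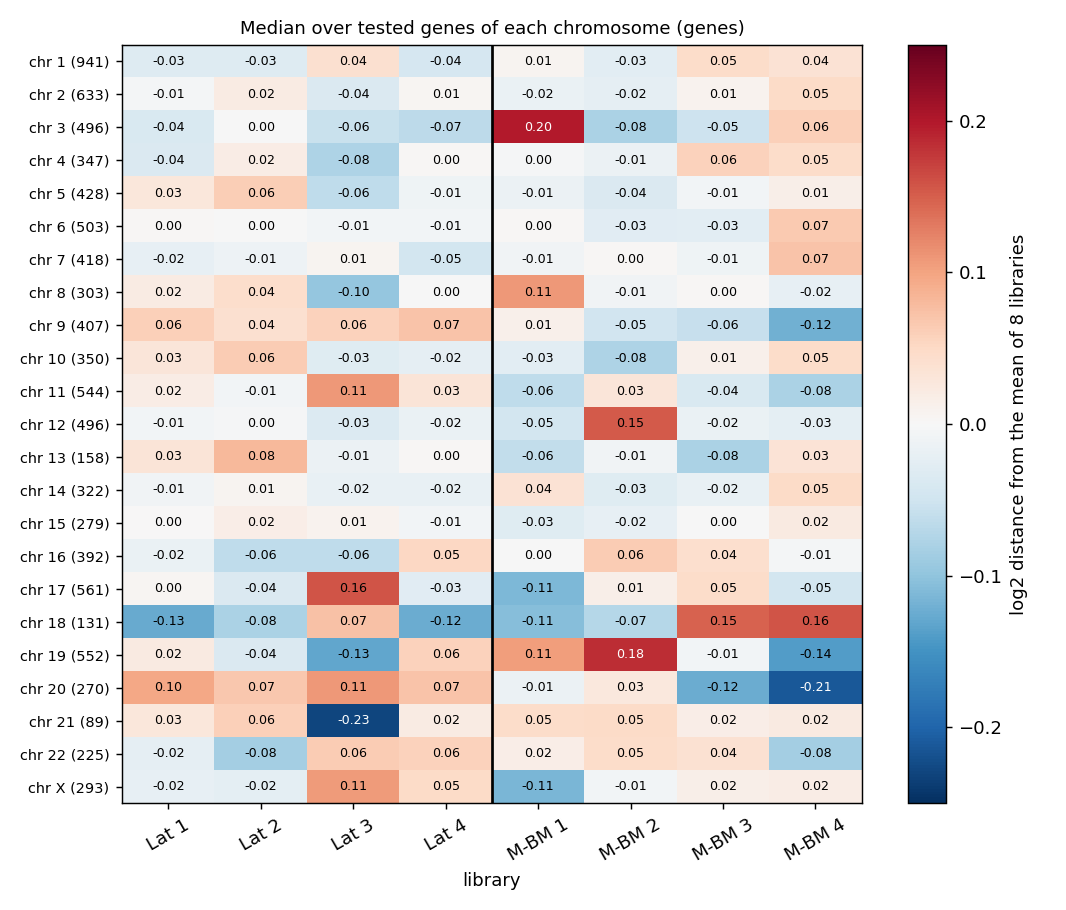
Median over the tested genes of each chromosome, per library, as the log2 distance from the mean of the 8 libraries (colour and printed value; red above, blue below). Chromosome 20 is above 0 in all 4 Lat libraries and lowest in M-BM 3 and M-BM 4 (-0.12 and -0.21), and chromosome 3 is high in M-BM 1 (0.20).

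The run of 15 neighbouring tested genes with the lowest median lay on chromosome 20 between ESF1 and LINC00493 (chr20:13714325-18569611, GRCh38.p14). Its median was -0.41, all 15 genes were below 0, and groups were separate in 6 of them. Of all tested genes 3.61% were separate and lower, and the run was picked for its low median. The run stood at -0.32, -0.26 and -0.24 in M-BM 2, 3 and 4, with M-BM 1 at 0.01 and Lat at 0.17 to 0.28. MGME1, a nuclease that maintains mitochondrial DNA, was 48.5, 49.3, 53.4 and 44.8 in Lat and 35.3, 28.4, 32.3 and 32.3 in M-BM (-0.60, limma adjusted p = 0.0614). POLR3F, a subunit of RNA polymerase III, was 28.6 to 34.3 and 17.1 to 23.04 (-0.66), and SEC23B, a coat protein of vesicles that leave the endoplasmic reticulum, 124 to 128 and 78.7 to 107 (-0.46). In each of the 3 genes S-BM was lower than Lat as well, at 21.9 to 27.5, 12.2 to 15.5 and 62.9 to 74.9. The 10 tested genes nearest to MGME1 had a median of -0.43, whereas those nearest to S100A2, KLF13, ACTG2, FAT2 and TTYH3 had medians of 0.00, -0.04, 0.01, -0.03 and -0.06.

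**Figure D5:**
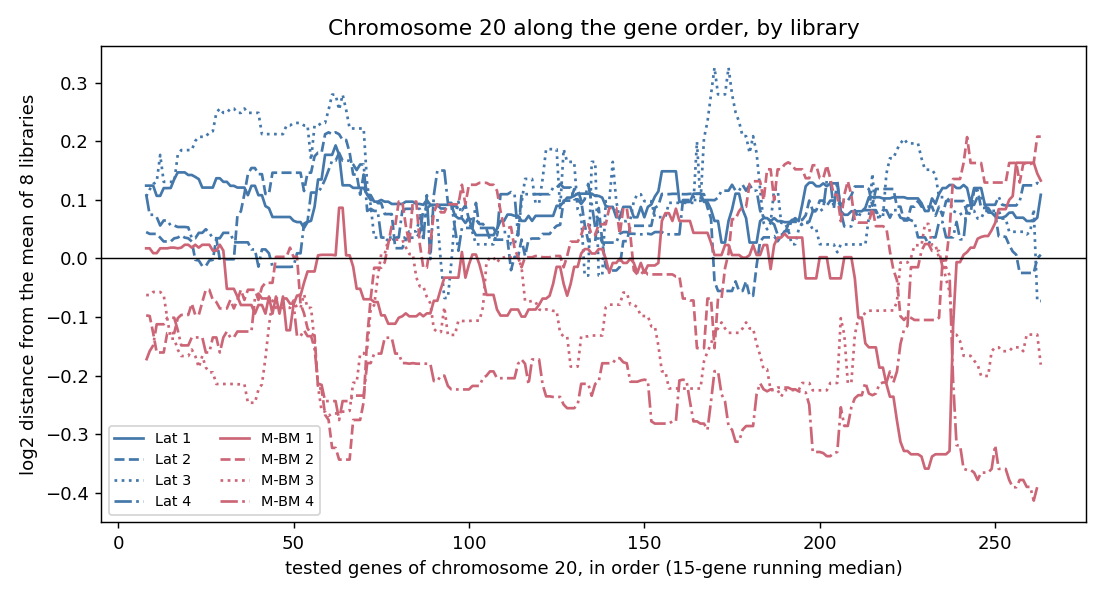
Running median over 15 tested genes in their order along chromosome 20 (horizontal axis, gene order; vertical axis, log2 distance from the mean of the 8 libraries), a line per library. M-BM 4 lies below 0 in 250 of 256 windows, M-BM 3 in 229, M-BM 1 in 144 and M-BM 2 in 109. M-BM 2 reaches its lowest point near MGME1 (-0.34), and M-BM 1 reaches its lowest point, -0.36, near NELFCD in the last part of the chromosome.

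On chromosome 9, 3 runs of 15 genes had lower medians in every M-BM library than in any Lat library. All runs given here were picked for the size of their median difference. Low or high M-BM values and separate groups therefore follow in part from the pick. Of all tested genes 3.61% were separate and lower. From SMU1 to RPP25L the median was -0.27, with groups separate in 6 genes, Lat at 0.01 to 0.36 and M-BM at -0.14 to -0.06. From CLTA to CNTNAP3 it was -0.27, with 7 genes separate, Lat at 0.08 to 0.24 and M-BM at -0.34 to 0.01. From PHF2 to CTSL2 it was -0.26, with 6 genes separate, Lat at 0.04 to 0.17 and M-BM at -0.26 to -0.02. Another run of chromosome 9, from RFX3 to RANBP6, went the other way with a median of 0.34 and 13 of 15 genes above 0. Groups were separate in 1 of its genes. Lat ranged from -0.63 to 0.31, with Lat 3 the highest, and M-BM from 0.05 to 0.38.

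The highest run, on chromosome 2, had a median of 0.72, with 11 of 15 genes separate, Lat at -0.82 to -0.19 and M-BM at 0.25 to 0.59. Of all tested genes 3.53% were separate and higher in M-BM. The run held 9 UGT1A genes, which share exons, so the same reads may be counted for each. UGT1A6, which conjugates phenols with glucuronic acid, was 173, 171, 107 and 164 in Lat and 239, 236, 234 and 295 in M-BM (0.72, limma adjusted p = 0.118). In contrast, a run on chromosome 18 from SS18 to MOCOS had a median of 0.42 with no gene separate: M-BM 3 and M-BM 4 were at 0.60 and 0.68, M-BM 1 and M-BM 2 at -0.24 and -0.31, and Lat at -0.35 to -0.12. DSG2, a desmosomal cadherin in that run, was 128 to 146 in Lat, 139 and 136 in M-BM 1 and 2, and 302 and 333 in M-BM 3 and 4. A run on chromosome 11 from CHORDC1 to CWC15 had a median of -0.31, with Lat 3 at 0.41 and M-BM at -0.17 to -0.07. On chromosome 19 a run from GATAD2A to ZNF681 had a median of -0.30, with 12 of 15 genes below 0. Groups were separate in 2 of its genes, with Lat at 0.05 to 0.35 and M-BM at -0.35 to 0.01.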

How the data were processed

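Total RNA was sequenced from TruSeq v2 libraries, a kit without strand marking. Per the submitters' processing notes, Bowtie 0.12.2 and GRCh38 were used. Which counter, annotation and scaling were used is not given in the sources used here. Deposited values are normalized counts (a signal scaled by the authors to similar totals); each column held whole multiples of a step, within 0.05 reads, so reads were recovered. Of the names, 27 had become dates, 12 of them tested.

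The main test was limma 3.58.1 (R 4.3.3) on log2(value + 1) of the 8 libraries, with group means, a variance trend and 6 residual degrees of freedom, two-sided, with Benjamini-Hochberg adjustment. Alternatives changed the offset, filter, scaling, libraries and tool (edgeR 4.0.16 and DESeq2 1.42.0 on recovered reads). The scripts were tested on simulated data. Members, lists and named genes were chosen with earlier results of these data known. The rule for named genes took called genes with separate groups (up to 12 per direction by size), up to 4 called genes per described list, a set of fixed genes and genes apart in single libraries; other genes given with values were chosen after their values were seen. Positions are from RefSeq (GRCh38.p14), 8478 by current symbol. Lists were described by counts and medians.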

Additional observations from a re-analysis of the deposited data

Results flagged for a closer look

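In 23 of 178 gene and group pairs the highest or lowest of 4 libraries lay far from the rest by Dixon's ratio of gap to range, 13 of them in Lat 3. Chance flags about 1 in 20 groups, but the genes were named with their values known, some because a library stood apart, so the number says nothing against chance. In Lat 3, DGAT2 was 19.8 against 11.8 to 12.3, SPARC was 41.9 against 2.21 to 3.07 and ZSCAN31 was 4.87 against 6.98 to 7.46 in the 3 others of its group. There too, GCLM was 101 against 138 to 144, SLC16A3 was 20.1 against 64.2 to 75.5 and VIM was 37.0 against 5.65 to 6.06. In the same library, FOSL1 was 246 against 174 to 179, TXNIP was 1481 against 81.9 to 90.4 and H19 was 3.73 against 9.97 to 11.6. Also, RARRES1 was 1.86 against 7.88 to 9.75, UGT1A6 was 107 against 164 to 173 and FN1 was 4951 against 1795 to 1940. Also, GSR was 98.9 against 142 to 146. In M-BM 2, ERBB2 was 4184 against 2801 to 2996 and HSPA1A was 165 against 102 to 106 in the 3 others of its group. In M-BM 4, LMAN1 was 26.8 against 0, CTSB was 192 against 216 to 221 and PFKM was 52.2 against 59.9 to 61.4 in the 3 others of its group. There too, UGT1A6 was 295 against 234 to 239. In Lat 4, MYC was 242 against 287 to 297 in the 3 others of its group. In M-BM 1, TXNIP was 27.9 against 122 to 155, TGFBR1 was 393 against 444 to 455 and HSP90AB1 was 2871 against 2370 to 2404 in the 3 others of its group.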

How the results depend on the processing

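The 5 calls became 18 (13 higher, 5 lower) with a filter at a value of 1, 11 (5 and 6) with no filter, 8 (7 and 1) with quantile normalization, 13 (8 and 5) with all 12 libraries in the fit, and 161 (96 and 65) with DESeq2 on recovered reads; edgeR gave 5, the same genes. Without each library in turn there were 3 to 27 calls, 2 to 11 higher and 1 to 16 lower, with 27 without M-BM 1 (11 and 16), 12 without Lat 3 (10 and 2), 9 without M-BM 2 and 3 without M-BM 4 (S100A2, FAT2 and ACTG2). Without Lat 3 and M-BM 4 together, chosen after the data were seen, there were 13 (11 and 2). All 5 genes were called in each of these leave-one-out fits except as given for KLF13 and TTYH3. An offset of 0.1 or 10, TMM scaling, no variance trend and Lat 1 averaged with Lat 2 gave 4 to 7. No difference changed sign among called genes. At an unadjusted p under 0.05 edgeR had 1074 genes and DESeq2 1150.

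Replicate numbers are shared between the groups, and a fit with the number as a block gave 25 calls (18 higher, 7 lower), all 5 among them. Residuals of same-numbered libraries correlated across genes at -0.148 to 0.345, above 0.1 in 2 of 4 pairs, while libraries with different numbers gave -0.306 to 0.338. The highest of these values, 0.345, was that of Lat 3 with M-BM 3. With 4 same-numbered pairs and such a spread the check cannot show whether libraries were paired, and no pairing was applied in the main test.

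With 4 libraries a group, the median standard error of a gene's difference was 0.12 on the log2 scale, and the smallest called difference was 1.41.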

Other observations

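Of the 7 lists whose library medians did not overlap, the heat shock list is described above. NOTCH pathway genes had a median of 0.14, with 10 of 14 above 0, and retinoid handling genes 0.14, with 11 of 14 above 0. KLF and SP factors had a median of -0.09, with 11 of 14 below 0, against the direction of KLF13. All 8 tested subunits of the CCT chaperonin, which folds actin and tubulin, were above 0, from 0.05 (CCT6A) to 0.18 (CCT3), and the library medians did not overlap (Lat -0.08 to -0.01, M-BM 0.02 to 0.07). Of 25 tested Mediator subunits, 19 were below 0. MED22 (-0.46), MED19 (-0.32), MED20 (-0.29) and MED9 (-0.29) had separate groups, while MED15 (0.29) was separate in the other direction. That is 16% of the list lower and 4% higher, against 3.61% and 3.53% of all tested genes. Among 16 genes of mitochondrial fission and fusion, the fusion genes OPA1 (0.37) and MFN2 (0.36) were separate and higher in M-BM. MTFR2 (-0.44) was separate and lower. That is 12.5% of the list higher and 6.25% lower, against 3.53% and 3.61% of all tested genes. MFN2 was 181 to 189 in Lat and 221 to 259 in M-BM (limma adjusted p = 0.132). None of these genes was called by limma or edgeR, and DESeq2 on recovered reads called MFN2 (adjusted p = 0.00225). The other CCT, Mediator, and fission and fusion genes were looked up only among the DESeq2 calls with the smallest adjusted p. Whether DESeq2 called any of them further down is not given here.

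KRT5, a keratin of basal epithelium, was 202, 185, 270 and 286 in Lat and 515, 548, 429 and 305 in M-BM, with separate groups (log2 difference 0.92, limma adjusted p = 0.118). KRT15 differed by 0.63 and KRT19 by 0.54 with overlapping groups, and KRT8 and KRT18 each by 0.07. The 11 tested keratins had a median of 0.07, with 7 above 0 and 4 below. The 20 tested genes of basal epithelium also had a median of 0.07, with 13 above 0 and 7 below, from COL17A1 (-0.53) to S100A2 (2.67). Groups were separate in 3 of these 20, all higher in M-BM (15%, against 3.53% of all tested genes). TGFBR1, a receptor of TGF-beta, was 686, 743, 870 and 533 in Lat and 393, 446, 455 and 444 in M-BM (-0.68, limma adjusted p = 0.113). The lysosomal protease CTSB was 139 to 176 and 192 to 221 (0.48, limma adjusted p = 0.114). Of 242 tested zinc finger genes of the ZNF series, 161 were below 0, with a median of -0.08. The synapse-associated receptor IL1RAPL1 was 13.9 to 19.9 in Lat and 32.2, 31.9, 93.9 and 67.1 in M-BM (1.47, limma adjusted p = 0.118), while S-BM was at 0.253 to 3.08. The matrix genes EFEMP1 (1.06) and FBLN1 (0.66) were separate and higher as well.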
